A study of Mus musculus with 3143 samples.

Results

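Elastic fibres give vessel walls their recoil. Elastin, the product of Eln, is laid down on microfibrils of fibrillin-1 (Fbn1), fibulins and latent TGF-beta binding protein 4 (Ltbp4) help to deposit and space it, and the copper enzymes lysyl oxidase (Lox) and lysyl oxidase-like 1 (Loxl1) cross-link it. Matrix Gla protein (Mgp), a small vitamin K-dependent protein of vessel walls, restrains mineral deposition on these fibres. In the kidney, elastic fibres are best known from the walls of arteries and larger arterioles.

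The 8 genes Fbln5, Fbln2, Eln, Fbn1, Ltbp4, Lox, Loxl1 and Mgp were taken by symbol from a raw count table of 46517 gene names, and all 8 were found. Its columns were 3143 sorted cells from kidneys of adult C57BL/6 mice, enriched for glomeruli, 1798 labelled IgAN on 6 plates and 1345 labelled Control on 4 plates. Both groups were dissociated with the same enzymes, stained with a viability dye, sorted and read by Smart-seq2, which copies whole polyadenylated RNAs and carries no molecular identifiers. The sources used here do not state how the IgAN mice were made, nor how many mice there were, so each group counts as 1 sample, no test was run and no p-value is given. No plate held cells of both groups, and an effect of plate and one of group cannot be told apart. Ranges over plates are printed where replicate errors would stand.

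Cells had 50365 to 1135415 reads, with a median of 231222 in IgAN cells and 241543 in Control cells. Cells were clustered without the 8 genes and without the elastic fibre lists used here, and the 20 clusters were named by marker genes, each name standing for RNA alone. Endothelial-like cells were the most numerous, with 1034 IgAN and 627 Control cells. Of these, cluster 16 (32 IgAN and 50 Control cells) took the arterial name, with Gja5 at 1119 CPM (reads of a gene per 1000000 reads) and Vegfc at 201 CPM. Cluster 15 (39 IgAN and 54 Control cells) took no name: it had Sox17 at 1042 CPM and Plvap at 860 CPM, but Gja5 at 6.18 CPM, and was led by Tspan8, Efhd1, Trpv4 and Calca. The remaining endothelial-like cells (963 IgAN and 523 Control cells) carried Ehd3, a marker of glomerular capillary endothelium, at 3000 CPM, against 370 CPM in the arterial-like cells and 152 CPM in cluster 15. No cluster took the fibroblast name, and fibroblasts, the classic makers of these fibres, are not described.

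Where the genes lie is given here by GENCODE vM21 on GRCm38, with the gene's exons, introns and UTRs within each interval. Fbln5 spans chr12:101746565-101819055 on the minus strand, Fbln2 chr6:91212455-91272540 on the plus strand, Eln chr5:134702593-134747323 on the minus strand and Fbn1 chr2:125300594-125507993 on the minus strand. Ltbp4 spans chr7:27305136-27337692, Loxl1 chr9:58287738-58313186 and Mgp chr6:136872435-136875823, all on the minus strand. Exons of Fbn1 share 2442 bases with Gm9913 on the other strand, and since no source used here states whether counting used strand, reads of the pair cannot be told apart. Gm9913 had 867 reads in all cells.

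Promoter sequences, 250 bases before to 50 after a start, were taken from RefSeq (GRCm38.p6) and are shown for Fbln5, Fbln2 and Ltbp4, the genes called higher in arterial-like cells than in other endothelial-like cells by the size rule given with that comparison. For Fbln5 (1 of 2 entries) and Ltbp4 (1 of 3 entries) the outermost start was used. Capitals mark a match on either strand to 1 of 4 short motifs. TGGGAA is the core read by RBPJ, the DNA-binding partner of Notch. Factors of the SOX family read ACAAT, SMAD proteins read CAGAC, and TATAAA is the classic core promoter element.
Fbln5, chr12:101819070-101819369, minus strand: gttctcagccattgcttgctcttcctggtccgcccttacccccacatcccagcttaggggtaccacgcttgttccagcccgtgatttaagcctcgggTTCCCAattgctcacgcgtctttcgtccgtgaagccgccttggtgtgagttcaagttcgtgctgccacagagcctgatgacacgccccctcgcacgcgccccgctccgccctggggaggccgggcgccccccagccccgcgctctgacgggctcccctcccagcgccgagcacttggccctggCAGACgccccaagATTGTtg
Fbln2, chr6:91212514-91212813, plus strand: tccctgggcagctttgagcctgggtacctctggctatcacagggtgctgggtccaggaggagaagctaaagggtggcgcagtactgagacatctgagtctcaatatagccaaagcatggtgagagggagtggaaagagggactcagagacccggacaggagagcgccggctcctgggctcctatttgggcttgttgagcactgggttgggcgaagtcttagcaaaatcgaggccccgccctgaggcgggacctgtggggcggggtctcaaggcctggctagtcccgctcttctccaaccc
Ltbp4, chr7:27337563-27337862, minus strand: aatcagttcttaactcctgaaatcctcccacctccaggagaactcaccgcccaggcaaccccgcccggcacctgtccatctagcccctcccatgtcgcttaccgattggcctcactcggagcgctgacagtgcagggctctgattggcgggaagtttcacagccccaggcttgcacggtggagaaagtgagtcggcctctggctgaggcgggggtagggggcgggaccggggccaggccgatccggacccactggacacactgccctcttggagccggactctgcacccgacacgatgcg
The Fbln5 window held TGGGAA at position 98 and ACAAT at position 294, both on the reverse strand, and CAGAC at position 281, counted from the 5′ end of the window. The 3 matches do not overlap. None of the 4 motifs was found in the Fbln2 and Ltbp4 windows, so the 3 windows shared none of them. Of 32851 promoters of this length, 25.6% held TGGGAA, 31.0% ACAAT, 49.6% CAGAC and 13.6% TATAAA, so that a match is common. Fbn1 had an entry as well, and Eln, Lox, Loxl1 and Mgp are named only.

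The 8 genes fell into 2 patterns across cell classes. Fbln5, Fbln2, Ltbp4 and Eln were highest in the arterial-like cells or in cluster 15. By contrast, Fbn1, Lox, Loxl1 and Mgp were highest in parietal epithelial-like or smooth muscle or renin cell-like cells. The parietal epithelial-like cells were those of cluster 17, led by Col6a2, Col6a1, Dkk3, Cpe and Cxcl12, and their name rests on the marker list alone. The part of fibroblast markers in the levels of Fbn1, Lox, Loxl1 and Mgp in that class was not tested. B cell- and plasma cell-like cells, which should make none of these proteins, gave the background: 0.141 CPM for Lox to 4.37 CPM for Mgp. This background differed between the groups and rests mostly on Control cells (117, against 27 IgAN cells). Mgp had 16.2 CPM in IgAN, with 79.8% of the reads in 1 cell, and 1.53 CPM in Control. Fbn1 had 2.55 CPM in IgAN and 0.481 CPM in Control. Of the 8 genes only Eln was lower in IgAN, at 0.729 against 1.01 CPM. Reads in 1 cell can sway a class of few cells, so the share of cells at 10 CPM or more is given beside the levels. Shares of cells with any read follow depth and enter only a filter on low values, since 25.0% of the B cell-like and plasma cell-like cells had a read of Fbln5, and 7.64% after each cell was thinned to 50000 reads.

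**Figure D1:**
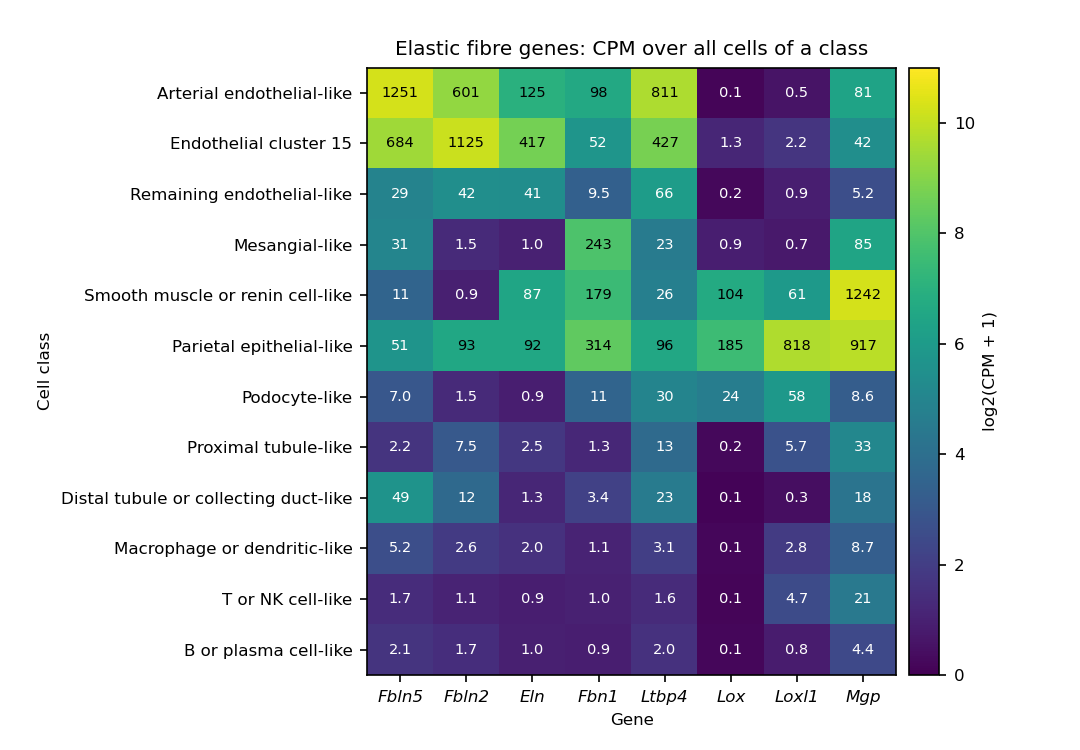
CPM of the 8 genes (columns) over all cells of each class (rows), written in the cell and coloured by log2(CPM + 1). Fbln5, Fbln2, Ltbp4 and Eln peak in the first 2 rows, with Fbln5 at 1251 CPM in arterial-like cells and Fbln2 at 1125 CPM in cluster 15, and Lox and Loxl1 peak in parietal epithelial-like cells at 185 and 818 CPM.

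Fbln5 encodes fibulin-5, which binds elastin, integrins and the cross-linking enzymes and is needed for elastic fibre assembly in mice. It had 1251 CPM in arterial-like cells (95% counting interval 1235 to 1266), 684 CPM in cluster 15 (673 to 695), 28.8 CPM in the remaining endothelial-like cells and 2.12 CPM in B cell-like and plasma cell-like cells. Over plates with at least 10 cells, arterial-like cells ranged from 808 to 1611 CPM and cluster 15 from 551 to 882 CPM, so the plates of these neighbours in the order overlapped, although arterial-like cells were the higher in 4 of 4 plates that held both. At 10 CPM or more were 67.1% of arterial-like cells, 63.4% of cluster 15 and 7.74% of the remaining endothelial-like cells. Arterial-like cells, 2.61% of all cells, held 42.6% of all Fbln5 reads, and cluster 15, 2.96% of all cells, held 27.7%.

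Next in the order were classes with far less Fbln5. Parietal epithelial-like cells had 51.3 CPM, distal tubule- or collecting duct-like cells 48.6 CPM and mesangial-like cells 30.9 CPM. In the distal class 28.1% of the reads came from 1 cell, and in mesangial-like cells 37.8% did, so these levels rest on few cells. The distal class had 75.5 CPM in IgAN and 1.57 CPM in Control cells. Mesangial-like cells had 28.6 CPM in IgAN and 35.3 CPM in Control cells, with 95.5% of the Control reads in 1 cell.

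Fbln2 encodes fibulin-2, a larger fibulin of the subendothelial matrix that binds elastin and fibrillin-1. It led in cluster 15 with 1125 CPM (1111 to 1139), followed by arterial-like cells with 601 CPM, parietal epithelial-like cells with 92.8 CPM and the remaining endothelial-like cells with 42.2 CPM. Plates of cluster 15 ran from 794 to 1737 CPM and those of arterial-like cells from 395 to 646 CPM, with no overlap. Among cells of cluster 15, 83.9% were at 10 CPM or more, against 54.9% of arterial-like cells and 9.76% of the remaining endothelial-like cells. Smooth muscle or renin cell-like cells, at 0.949 CPM, and mesangial-like cells, at 1.49 CPM, were no higher than B cell-like and plasma cell-like cells at 1.69 CPM.

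Ltbp4 encodes a large secreted protein that holds latent TGF-beta in the matrix and works with fibulin-4 and fibulin-5 in elastic fibre assembly. It had 811 CPM in arterial-like cells, 427 CPM in cluster 15, 96.3 CPM in parietal epithelial-like cells and 66.1 CPM in the remaining endothelial-like cells. Of the remaining endothelial-like cells, 15.3% were at 10 CPM or more. That class made up 47.3% of all cells and held 45.1% of all Ltbp4 reads.

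Eln had 417 CPM in cluster 15 (409 to 426), 125 CPM in arterial-like cells, 92.2 CPM in parietal epithelial-like cells and 87.4 CPM in smooth muscle or renin cell-like cells. Cluster 15 held 29.6% of all Eln reads, and 60.2% of its cells were at 10 CPM or more, against 24.4% of arterial-like cells. Plates of cluster 15 ran from 192 to 636 CPM and those of arterial-like cells from 46.9 to 238 CPM, so the ranges met. Mesangial-like cells and podocyte-like cells had 0.996 and 0.924 CPM, the level of B cell-like and plasma cell-like cells at 0.952 CPM.

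Levels between genes can be set side by side only per length of exon, as CPM per kilobase. On that scale Fbln5 led in arterial-like cells at 181, before Ltbp4 at 126, Fbln2 at 94.4, Mgp at 68.6 and Eln at 15.5. In cluster 15 the order was Fbln2 at 177, Fbln5 at 98.9, Ltbp4 at 66.0 and Eln at 51.5. Elastin itself was thus below the fibulins and Ltbp4 per length in both endothelial clusters. In cluster 15, Eln and Ltbp4 had 417 and 427 CPM. Their gap per length there rests mostly on the exon lengths used, 8098 and 6463 bases.

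Arterial-like cells were compared with all other endothelial-like cells over 9765 measured genes. A gene counted as measured when, on 1 side, it had 10 CPM or more over all cells and a read in at least 10% of the cells. A gene was called when its log2 difference over all cells (1 CPM added) was at least 1 in size and its sign was the same within each plate that had 10 cells on both sides, here 4 plates. Of the 6 genes measured, 3 were called higher and 0 lower, where 2.23% of all measured genes were called higher and 7.92% lower. Over all cells of all plates Fbln5 was higher by 4.27 (3.35 to 4.50 within the 4 plates), Ltbp4 by 3.23 (2.35 to 3.43) and Fbln2 by 2.57 (1.41 to 2.33), each in 4 of 4 plates. The totals take in all plates, also those with fewer cells, so the total for Fbln2 can lie outside its range within plates. Fbn1 (2.95), Mgp (3.33) and Eln (1.02) had positive totals but a negative difference in 1 or 2 of the 4 plates, and Lox and Loxl1, at 0.103 and 0.515 CPM in arterial-like cells, were not measured. The median difference of the 6 genes was 3.09, beside −0.07 over all measured genes.

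Cluster 15 was set against the remaining endothelial-like cells alone, without the arterial-like cells, so its counts rest on another comparison than those above. In 5 plates with 10 cells on each side, 5 of the 6 genes measured were called higher and 0 lower, where 2.62% of 9833 measured genes were called higher and 8.63% lower. The differences were 4.70 for Fbln2, 4.52 for Fbln5, 3.32 for Eln, 2.67 for Ltbp4 and 2.35 for Fbn1, each positive in 5 of 5 plates, and 2.79 for Mgp, positive in 3 of 5. Their median was 3.05, beside −0.05 over all measured genes. Between the 2 clusters, Eln was lower in arterial-like cells than in cluster 15 by 1.73 and in 4 of 4 plates (−3.44 to −0.39), the single call among 6 genes, where 4.28% of measured genes were called lower. Both comparisons with cluster 15 were added after the levels had been seen, and clusters are made from other genes of the same cells, so the counts describe where these genes lie and are no test.

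**Figure D2:**
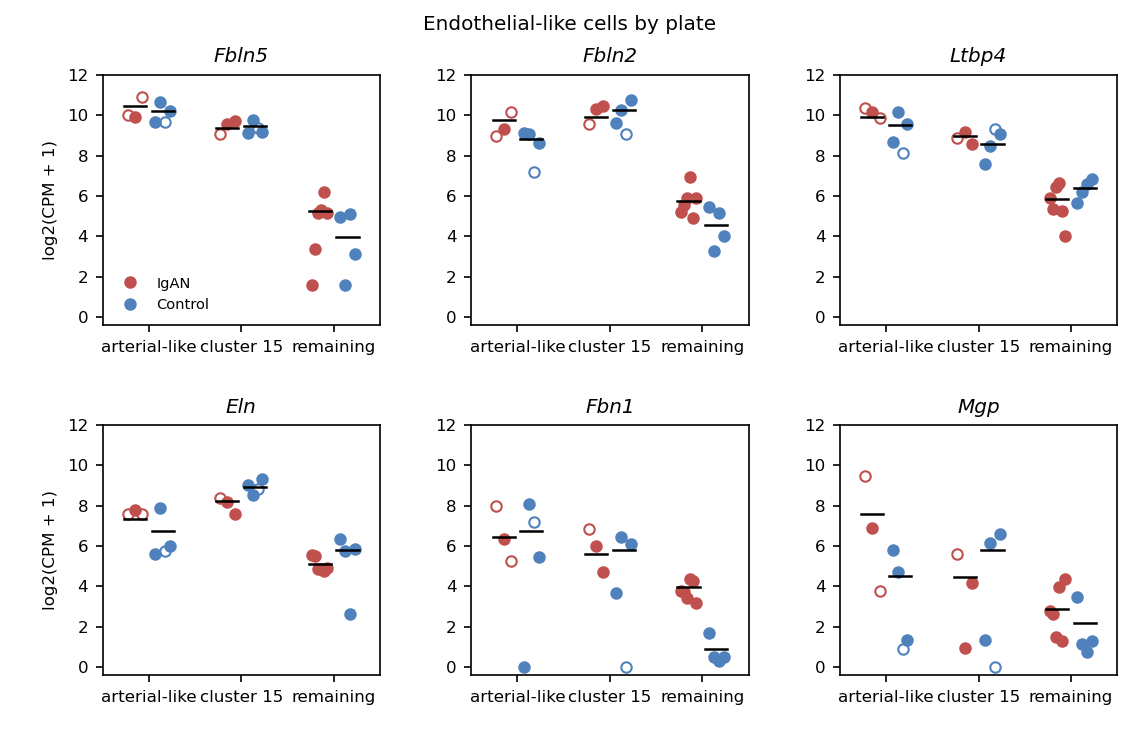
Level of 6 genes as log2(CPM + 1) in arterial-like cells, cluster 15 and the remaining endothelial-like cells, with IgAN plates in red left of Control plates in blue, filled for plates with at least 10 cells and open for 5 to 9, and a black line at the level over all cells of a group. Fbln5, Fbln2 and Ltbp4 stand high in the arterial-like cells and cluster 15 of both groups, and Fbn1 in the remaining cells separates the IgAN plates (8.05 to 19.3 CPM) from the Control plates (0.222 to 2.26 CPM).

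Single cells held varied sets of the 4 endothelial genes. Of 82 arterial-like cells, 11 had Fbln5, Fbln2, Eln and Ltbp4 all at 10 CPM or more and 6 had none of them, and of 93 cells of cluster 15, 21 had all 4 and 1 had none. Among the 1486 remaining endothelial-like cells, 2 had all 4 and 929 had none. In cluster 15, 49 cells had both Fbln5 and Fbln2, against 49.5 from the product of the shares, while in the remaining endothelial-like cells 25 cells had both, against 11.2. These are counts of cells, which share their library and depth, and are given as a description.

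Other elastic fibre genes came from a list of 23 partners. Against other endothelial-like cells, 0 of 11 measured partners were called higher in arterial-like cells and 2 were called lower: Mfap2, a microfibril component, at 4.43 against 78.3 CPM, and Emilin1, an elastin-microfibril interface protein, at 53.3 against 213 CPM. In cluster 15, 1 of 11 was called higher, Tgm2 (transglutaminase 2, a protein cross-linker), at 1250.3 against 163 CPM, and 2 were called lower, Emilin1 at 55.6 against 222 CPM and Bmp1, which cleaves matrix precursors, at 20.2 against 56.2 CPM. The list's median difference was 0.19 in arterial-like cells and −0.22 in cluster 15, beside −0.07 and −0.05 over all measured genes. Mmrn2, an endothelial member of the emilin family, was the most abundant partner in arterial-like cells, at 1434 CPM.

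Enzymes that degrade elastin and inhibitors of them gave few calls. Of 4 measured degrading enzymes, 0 were called in arterial-like cells, and 1 was called lower in cluster 15, the lysosomal protease Ctsl, at 214 against 807 CPM. Timp3, a metalloproteinase inhibitor that binds matrix, was called higher in cluster 15, at 4872 against 2115 CPM, as 1 of 5 measured inhibitors, and Timp1 was called lower in arterial-like cells, at 0.412 against 12.2 CPM. Among 11 measured genes of the list around matrix Gla protein, Bmp4, a ligand that Mgp binds, was called higher in arterial-like cells (131 against 34.2 CPM) and lower in cluster 15 (3.37 against 36.0 CPM). Gas6, another vitamin K-dependent protein, went the other way, at 70.0 against 310 CPM in arterial-like cells and at 621 against 292 CPM in cluster 15. Also called lower were Vkorc1l1 in arterial-like cells and Bmpr2 and Bmp6 in cluster 15.

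Fbn1 was the microfibril gene of the mural and parietal classes. Parietal epithelial-like cells had 314 CPM (307 to 321), mesangial-like cells 243 CPM (238 to 248), the smooth muscle or renin class 179 CPM and arterial-like cells 97.7 CPM. The plates of parietal epithelial-like cells (125 to 724 CPM) overlapped those of mesangial-like cells (38.6 to 516 CPM), so the order of these neighbours is not beyond the spread. At 10 CPM or more were 51.5% of parietal epithelial-like, 43.9% of mesangial-like and 42.9% of smooth muscle or renin cell-like cells, against 1.39% of B cell-like and plasma cell-like cells.

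RNA of the cross-linking enzymes lay largely outside the endothelium. Lox, at chr18:52516067-52529867 on the minus strand, had 185 CPM in parietal epithelial-like cells (179 to 190), 104 CPM in the smooth muscle or renin class and 24.4 CPM in podocyte-like cells, and at most 1.25 CPM in the 3 endothelial parts. Loxl1 had 818 CPM in parietal epithelial-like cells, with 89.7% of cells at 10 CPM or more, 60.5 CPM in the smooth muscle or renin class and 58.1 CPM in podocyte-like cells. The 68 parietal epithelial-like cells, 2.16% of all cells, held 62.3% of all Lox reads and 78.8% of all Loxl1 reads. Per length, Loxl1 was above Lox in parietal epithelial-like cells, 248 against 38.7 CPM per kilobase, and the pair stood at 18.4 against 21.8 in smooth muscle or renin cell-like cells. Of the parietal epithelial-like cells, 26 had both enzymes at 10 CPM or more, 35 had Loxl1 alone and 3 had Lox alone.

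The level of Mgp was highest in the 35 smooth muscle or renin cell-like cells, at 1242 CPM and at 10 CPM or more in 91.4% of them, and next came parietal epithelial-like cells at 917 CPM (85.3% of cells). Mesangial-like cells had 85.5 CPM and arterial-like cells 81.4 CPM. Per length Mgp was the most abundant of the 8 genes in both leading classes, at 1046 and 773 CPM per kilobase. A neutrophil-like cluster had 84.3 CPM of Mgp, but its IgAN cells carried 9578 CPM of endothelial markers, and it is not described further. The parietal epithelial-like cells also carried markers of smooth muscle or renin cells, 1988 CPM in IgAN and 1623 CPM in Control cells, beside 4189 and 4128 CPM of their own 8 markers. The part of those markers in the Mgp level was not tested.

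**Figure D3:**
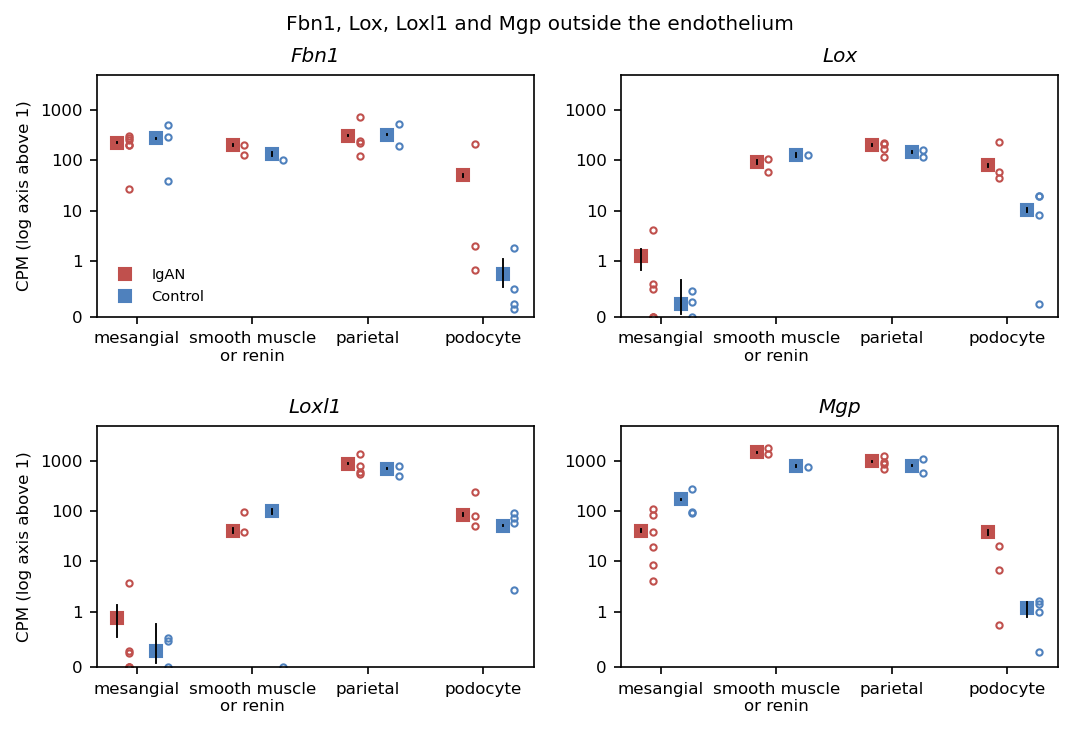
CPM of Fbn1, Lox, Loxl1 and Mgp in 4 classes outside the endothelium, with IgAN in red left of Control in blue, on an axis that is linear to 1 and logarithmic above it. Squares are levels over all cells of a group with 95% counting intervals and open circles are plates with at least 5 cells, and Loxl1 in parietal epithelial-like cells stands at 875 CPM in IgAN and 699 CPM in Control.

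Genes whose levels over 22 sums (11 classes or endothelial parts, IgAN and Control apart) ran most like each of the 8, by Pearson's r of log2(CPM + 1), are named as a description. They were Jam2, Sparcl1 and Prkcdbp for Fbln5 (0.87 to 0.86), Crispld1, Tmem255b and Lama3 for Fbln2 (0.92 to 0.90) and Tmem255b, Gja1 and Ltbp1 for Eln (0.97 to 0.93). For Ltbp4 they were Prkcdbp, Slc9a3r2 and Hspb1 (0.92 to 0.91), for Fbn1 Ecm1, Acta2 and Cald1 (0.87 to 0.84) and for Mgp Acta2, Clip3 and Cpe (0.84 to 0.77). For Lox they were St8sia2, Igsf10 and Asic2 (0.96 each) and for Loxl1 Cst12, Fam180a and Amph (0.98 to 0.95). Within the 8, the closest pairs were Fbln2 with Eln (0.96), Lox with Loxl1 (0.92) and Fbln5 with Fbln2 (0.90), while Fbln5 with Loxl1 stood at −0.03. The smooth muscle or renin class, where Mgp was highest, had too few cells (12 in Control) to enter the sums, as had the neutrophil-like cluster. The sums share libraries and the 2 members of a class pair are not independent.

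IgAN was set against Control within each class that had at least 3 plates of each group with 10 cells. A gene was called when its log2 difference, IgAN minus Control with 1 CPM added, was at least 1 in size and the plates of the groups did not overlap. Over all endothelial-like cells, 0 of the 6 measured genes were called, where 1.52% of 9714 measured genes were. Eln had 44.1 CPM in IgAN and 94.7 CPM in Control cells (−1.09), Fbln5 89.5 and 155 CPM (−0.79), Ltbp4 93.0 and 154 CPM (−0.72) and Fbln2 102 and 153 CPM (−0.57). Plates overlapped for each of these genes. For Eln, 1 Control plate at 31.3 CPM lay within the IgAN plates (29.1 to 59.9 CPM), and the other Control plates were at 97.6 to 116 CPM. Without that plate no overlap was left, so Eln was called, at −1.20, which adds no support for a difference. From the 4 lists, Bmp6, a BMP ligand of endothelium, was the 1 gene called, at 46.3 CPM in IgAN and 20.8 CPM in Control cells.

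The parts of the endothelial-like class had different shares in the groups. Arterial-like cells were 3.09% of IgAN endothelial-like cells (2.13% to 4.34%; 0.498% to 5.14% over plates) and 7.97% of Control ones (5.98% to 10.4%; 6.52% to 8.38%). Cluster 15 was 3.77% of IgAN (1.49% to 5.80% over plates) and 8.61% of Control endothelial-like cells (5.43% to 9.42%). Plates of the groups did not overlap for the arterial share and did for cluster 15. Inside the parts, Fbln5 had 1393 CPM in IgAN and 1174 CPM in Control arterial-like cells, 661 and 697 CPM in cluster 15, and 36.9 and 14.7 CPM in the remaining cells. The log2 difference of Fbln5 in arterial-like cells, 0.25, turned to −0.22 without cells carrying markers of a second class, to −0.30 with equal weight for plates and to −0.04 without 1 IgAN plate, so it has no settled direction. The part of these shares in the whole-class values was not tested.

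In the remaining endothelial-like cells, a comparison added after the member levels were seen, Fbn1 was the 1 gene called of 5 measured, where 1.45% of 9682 measured genes were called and 0.806% were called higher. Fbn1 had 12.4, 12.0, 9.78, 19.3, 17.9 and 8.05 CPM on the IgAN plates, and 2.26, 0.404, 0.222 and 0.398 CPM on the Control plates. Every IgAN plate lay above every Control plate, with 14.4 CPM over all IgAN cells (13.9 to 14.9) and 0.856 CPM over all Control cells (0.713 to 1.02), a log2 difference of 3.05. The call was lost at coarser and finer clusterings, where the difference was 1.67 and 1.68, and held without any 1 plate (2.89 to 3.49). Fbn1 in IgAN was also above Control in each of the 5 larger clusters of these cells, at 9.82 to 21.9 CPM in IgAN and 0.291 to 3.79 CPM in Control cells, although most clusters were largely of 1 group. Classes with little Fbn1 were higher in IgAN too. Distal tubule- or collecting duct-like cells had 5.21 CPM in IgAN and 0.121 CPM in Control, and proximal tubule-like cells 2.24 and 0.16 CPM. Mesangial-like, parietal epithelial-like and arterial-like cells and cluster 15 were lower in IgAN, but in each the sign turned under some alternatives. In cluster 15 the difference (−0.23) was 1.06 without cells carrying markers of a second class and 0.42 without 1 Control plate. Fbn1 thus has no settled direction in these classes. Whether the difference in the remaining endothelial-like cells departs from that in the low classes was not tested.

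The Fbn1 reads came from few cells. At 10 CPM or more were 44 of 963 IgAN cells, spread over 6 plates, and 5 of 523 Control cells on 3 plates, and the 44 IgAN cells held 96.1% of the IgAN reads. The 10 mesangial markers summed to 465 CPM in those 44 cells and 94.6 CPM in the other IgAN cells, and to 108 CPM over all IgAN and 68.2 CPM over all Control cells of the remaining endothelial-like kind. The same markers summed to 14117 CPM in IgAN mesangial-like cells. Of the 44 cells, 22 carried markers of a second class, as did 389 of all 963 IgAN cells. In Control the mesangial markers summed to 21.7 CPM in the 5 cells and 68.4 CPM in the others. With all such cells left out the log2 difference was 3.00, and the part of the mesangial markers in the result was otherwise not tested.

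Fbln5 and Fbln2 were not called in the same cells. Fbln2 had 53.6 CPM in IgAN and 22.4 CPM in Control cells (1.22), with IgAN plates from 29.4 to 122 CPM and Control plates from 8.68 to 42.1 CPM. Fbln5 had 36.9 and 14.7 CPM (1.27), with IgAN plates from 2.04 to 72.1 CPM and Control plates from 2.02 to 33.1 CPM. Both sets of plates overlapped. With 1 plate left out the Fbln5 difference ran from 0.53 (without 1 IgAN plate) to 1.84 (without 1 Control plate), and with classes set by a per-cell marker score it was 0.16. By cluster, Fbln5 had 77.8 CPM in IgAN and 6.86 CPM in Control cells of cluster 0, but 9.29 and 39.1 CPM in cluster 1. Ltbp4 (−0.53) and Eln (−0.72) were not called either. Of the partner list, Hmcn1 (hemicentin-1, a fibulin family member) was called higher at 21.6 against 5.04 CPM, and Tgm2 at 225 against 53.1 CPM, as 2 of 11 measured, with 0 lower. Bmp6 was called higher at 48.0 against 22.6 CPM, 1 of 10 measured in the list around matrix Gla protein, and 0 of 4 degrading enzymes and 0 of 5 inhibitors were called.

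**Figure D4:**
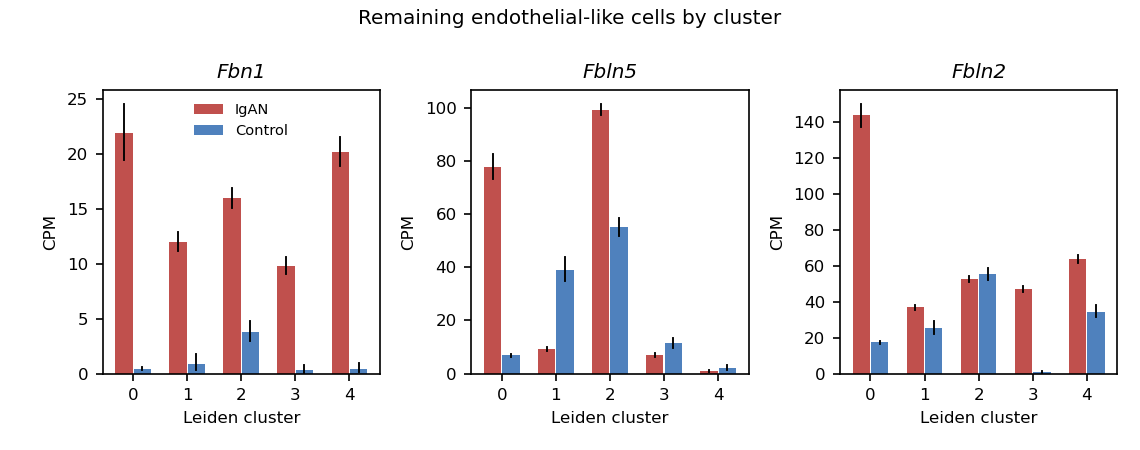
CPM of Fbn1, Fbln5 and Fbln2 in the 5 larger clusters of the remaining endothelial-like cells (the sixth, of 14 cells, is left out), with IgAN bars in red left of Control bars in blue and 95% counting intervals as lines. The IgAN bar of Fbn1 stands above the Control bar in every cluster shown, while that of Fbln5 does so in clusters 0 and 2 (77.8 against 6.86 CPM and 99.3 against 55.0 CPM) and not in clusters 1, 3 and 4.

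In arterial-like cells and cluster 15 the plates were too few for a call, and values alone are given. Fbln2 had 878 CPM in IgAN and 453 CPM in Control arterial-like cells, Ltbp4 964 and 729 CPM, and Eln 160 and 107 CPM. For Mgp the values were 192 and 21.9 CPM, with 1 IgAN plate of 7 cells at 703 CPM. In cluster 15, Eln had 296 CPM in IgAN and 487 CPM in Control cells, Fbln2 979 and 1209 CPM, and Ltbp4 505 and 382 CPM. Fbn1 stood at 85.3 CPM in IgAN and 104 CPM in Control arterial-like cells, a log2 difference of −0.29 that turned to 1.04 without 1 Control plate, to 0.05 without 1 IgAN plate and to 2.1 without cells carrying markers of a second class. Whether its difference there departs from that in the remaining cells was not tested.

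In mesangial-like cells 0 of 4 measured genes were called, where 4.65% of 10022 measured genes were. Fbn1 had 226 CPM in IgAN and 274 CPM in Control cells (−0.28), a difference that turned to 0.52 without 1 Control plate. Mgp had 40.6 CPM in IgAN and 170 CPM in Control cells (−2.04), with IgAN plates of at least 10 cells at 8.40 to 110 CPM and Control plates at 90.4 to 280 CPM. The overlap came from 1 IgAN plate of 12 cells. Without it no overlap was left, so Mgp was called, at −2.27, but a coarser clustering gave 0.22. Of the partner list, Fbln7 (fibulin-7) was called higher in IgAN at 213 against 72.9 CPM, 1 of 11 measured. In the list around matrix Gla protein, Bmp4 was called higher at 145 against 25.5 CPM and Fn1 (fibronectin) at 47.5 against 1.13 CPM, 2 of 11 measured. Parietal epithelial markers summed to 1910 CPM in IgAN and 619 CPM in Control mesangial-like cells, and their part in these differences was not tested.

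In parietal epithelial-like cells no Control plate had 10 cells, so no gene could be called. Lox had 203 CPM in IgAN and 147 CPM in Control cells, Loxl1 875 and 699 CPM, Fbn1 308 and 326 CPM, Mgp 971 and 805 CPM and Eln 95.2 and 85.9 CPM. Fbln5 had 14.5 CPM in IgAN and 129 CPM in Control cells, Fbln2 40.5 and 203 CPM, and Ltbp4 131 and 22.7 CPM. Fbln5 was at 10 CPM or more in 3 of 46 IgAN and 9 of 22 Control cells, Ltbp4 in 18 of 46 and 2 of 22. In the 23 IgAN and 12 Control cells of the smooth muscle or renin class, Mgp was at 1466 CPM in IgAN and 799 CPM in Control cells and Lox at 93.0 and 126 CPM.

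Podocyte-like cells had 2 IgAN plates with 10 cells and so no calls. Lox had 79.7 CPM in IgAN and 10.4 CPM in Control cells (2.82), at 44.0, 237 and 57.9 CPM on the 3 IgAN plates with at least 5 cells and at 8.27, 19.4, 20.0 and 0.235 CPM on the 4 Control plates. These plates did not overlap. The other IgAN plates, of 3 cells each, had 15.0, 0 and 0 CPM, none above the highest Control plate. At 10 CPM or more were 9 of 40 IgAN and 8 of 146 Control cells, with 53.9% of the IgAN reads in 1 cell. With 1 plate left out the difference ran from 1.49, without the IgAN plate at 237 CPM, to 3.20. Loxl1 had 84.3 CPM in IgAN and 51.5 CPM in Control cells, with overlapping plates. Fbn1, at 50.4 and 0.772 CPM, came from 1 IgAN cell for 96.8% of its reads. Fibroblast markers summed to 588 CPM in IgAN and 100.4 CPM in Control podocyte-like cells, and in IgAN the sum stood at 586 CPM in the 9 cells with Lox and at 588 CPM in the others, against 220 CPM in the 8 Control cells with Lox and 92.3 CPM in the others. Parietal epithelial markers summed to 1042 CPM in the 9 IgAN cells and 682 CPM in the others, and to 296 CPM in the 8 Control cells and 577 CPM in the others. The part of both marker lists in the Lox values was not tested.

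Mgp was the 1 gene of 3 measured that was called in proximal tubule-like cells, where 6.99% of 9587 measured genes were called. It had 58.1 CPM in IgAN and 1.01 CPM in Control cells, a log2 difference of 4.88, with IgAN plates at 124, 3.03, 33.9 and 2.95 CPM and Control plates at 1.80, 1.54 and 0.332 CPM. Of the IgAN reads, 49.0% were in 1 cell, and the call was lost without the plate at 124 CPM (2.33) and without cells that carried markers of a second class (1.18). Higher Mgp in IgAN was not particular to this class. B cell- and plasma cell-like cells had 16.2 CPM in IgAN and 1.53 CPM in Control. Distal tubule- or collecting duct-like cells had 27.3 and 1.45 CPM. Podocyte-like, T cell- or NK cell-like and macrophage- or dendritic cell-like cells were higher in IgAN too, and mesangial-like cells were lower. Whether the proximal tubule difference departs from these was not tested. Endothelial markers summed to 1225 CPM in IgAN and 179 CPM in Control proximal tubule-like cells, and their part was not tested. From the lists, Efemp1 (fibulin-3) at 10.4 against 0.373 CPM, Ltbp1 at 15.3 against 1.55 CPM and the metalloproteinase Mmp14 at 22.0 against 1.01 CPM were called higher, and Ggcx, the vitamin K-dependent carboxylase, was called lower at 4.98 against 25.2 CPM.

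T cell- or NK cell-like cells came from cluster 11, led by Cd3e, Tcf7 and Trac (32 IgAN and 83 Control cells), and cluster 13, led by Ncr1, Gzma and Prf1 (57 IgAN and 45 Control cells). In the class 0 of 2 measured genes were called, where 1.68% of 9445 were. Mgp, at 46.6 CPM in IgAN and 1.47 CPM in Control cells, took 57.5% of its IgAN reads from 1 cell. Mmp2, a gelatinase, was called higher (17.9 against 1.44 CPM), 1 of 4 measured degrading enzymes. In cluster 13 it had 28.8 CPM in IgAN, 69.4% of it from 1 cell, and 1.90 CPM in Control cells, and in cluster 11 the levels were 2.56 and 1.19 CPM. Reck, an inhibitor of metalloproteinases, was called lower (0.324 against 53.7 CPM), 1 of 5 measured inhibitors. In cluster 11 it had 0.446 CPM in IgAN and 76.7 CPM in Control cells, and in cluster 13 0.238 and 11.2 CPM, with 98.2% of the Control reads of cluster 13 in 1 cell. Each group thus drew its cells mostly from a different cluster, and the part of that in both calls was not tested.

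Macrophage- or dendritic cell-like cells came from clusters 7 (126 IgAN and 47 Control cells) and 12 (51 IgAN and 52 Control cells). There 0 of 1 was called, where 1.25% of 9785 were, with Mgp at 13.2 CPM in IgAN and 1.18 CPM in Control cells.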

How the data were processed

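The measured values are counts: whole numbers of reads per gene name in each cell, deposited by the authors without normalization. Per the submitters' processing notes, the tools were featureCounts (Subread 1.4.6-p5), TopHat2 2.1.1 and SAMtools 0.1.18, on GRCm38 (mm10). Which annotation and strand setting counted the reads, and whether cells were dropped, is not given in the sources used here. Doublets were not sought with a caller, and leaving out cells that carried markers of a second class was an alternative.

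Cells were clustered with scanpy 1.11.5 (2000 variable genes, 30 components, 15 neighbours, Leiden resolution 1). Each cluster was named for the marker list with the greatest mean log2 fold, if 3 or more of that list were read in 25% of the cells. A rule that the mean be above 0 was dropped after the clusters were seen, and this made cluster 15 endothelial-like. The 10 CPM limit for single cells was also chosen after values were seen. Reads were summed per class and group and scaled to counts per 1000000 reads (CPM), and lengths came from GENCODE vM21. Intervals are exact 95% Poisson or binomial ones and cover counting error only. The call rules were tried on simulated plate sums in which no gene had its reads in few cells. That trial therefore says nothing on genes whose reads come from few cells. The 8 genes and the lists were chosen with earlier results of these data known. Named are the 8 genes, list genes called by size with the most abundant list genes, and the 3 genes most like each of the 8. Alternatives with edgeR 4.0.16 scaling, other clusterings, filters and left-out plates are in the closing section.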

Additional observations from a re-analysis of the deposited data

How the results depend on the processing

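The class with the highest level was the same for all 8 genes under the 23 alternatives. Alternatives that changed only filters, the fold limit or the CPM added could not have changed it. The TMM and median-of-ratios factors were not applied to these levels, so those alternatives could not have changed it either. Cluster 15 is defined by the main clustering, so the peaks of Eln and Fbln2 there were not found anew under other clusterings. The 3 genes called in arterial-like cells became 5, with Eln and Fbn1, when classes were set by a per-cell marker score. Over all endothelial-like cells the count of 0 stayed between 0 and 1 when a plate was left out (Eln without 1 Control plate). In the remaining endothelial-like cells the count of 1 fell to 0 at Leiden resolutions 0.5 (Fbn1 at 1.67) and 2 (1.68) and under a 50 CPM filter, and stayed at 1 without any 1 plate (Fbn1 at 2.89 to 3.49). In mesangial-like cells the count ran from 0 to 1 with a plate left out (Fbln5 without 1 Control plate, at 3.59; Mgp without 1 IgAN plate), and Mgp was 0.22 at resolution 0.5. In proximal tubule-like cells the count of 1 was 2 at resolution 0.5, 2 without a filter on low values, 0 without cells carrying markers of a second class, and 0 to 2 with a plate left out. In T cell- or NK cell-like cells it ran from 0 to 1 (Mgp without 1 Control plate). The cause of these moves was not tested, beyond fewer genes tested under the 50 CPM filter. TMM and median-of-ratios scaling changed no count. Of 1351 values of log2 differences, 1077 moved by less than the spread over plates or the counting interval. Among the 1077 are all values from alternatives that changed only filters or the fold limit, which cannot move a log2 difference. Of 112 shares of cells with a read, 82 moved past their interval after thinning to 50000 reads, so those shares follow depth. The sign of a log2 difference turned in 53 values, over 23 combinations of gene and class, 0 of them called. In arterial-like cells Fbn1 (−0.29) was also positive at resolutions 0.5 (0.40) and 2 (0.16). In parietal epithelial-like cells Lox (0.46) was −0.12 as a mean of per-cell CPM, and Mgp (0.27) was −0.04 without 1 plate. Fbn1 there (−0.08) was 0.15 by the per-cell marker score and up to 0.61 with a plate left out, and Eln (0.15) was −0.36 to −0.02 in 5 alternatives. In podocyte-like cells Loxl1 (0.70) was −0.47 and Fbln5 (0.98) −0.31 without 1 IgAN plate, and in mesangial-like cells Fbln5 (−0.30) was 4.77 without cells carrying markers of a second class. These genes have no settled direction in those classes. No paired analysis was possible because no plate or label pairs IgAN with Control cells.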
